A study of Mus musculus with 24 samples.

Results

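The genes described here are 10 chaperone genes of the mouse: Serpinh1, which encodes the collagen chaperone HSP47, and the heat shock protein genes Hspa1a, Hspa1b, Hsph1, Dnajb1, Hspb1, Hsp90aa1, Hspa8, Hspd1 and Hspe1. They were taken by name, with earlier results of these data known. They are 10 of the 55359 genes in the count table, and each name matched 1 row. The question put to them was how their transcripts differed between oligodendrocytes kept with ethanol and oligodendrocytes kept without it. The cells came from the cortex of C57BL/6J pups aged postnatal day 5 to 7. They were picked with magnetic beads against O4, a surface antigen of immature oligodendrocytes, and matured for 3 days in a medium whose main differentiation signal was the thyroid hormone triiodothyronine (T3). They were then kept for 3 more days with 30 mM, 10 mM or 0 mM ethanol.

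The 24 cultures fall into 4 groups of 6. The 30 mM cultures and 6 controls form the first batch named in the labels, and the 10 mM cultures and 6 other controls form the second batch. Control plates stood in a separate incubator, and a difference made by ethanol cannot be told apart from one made by the incubator. Each dose was run in 1 batch, so dose and batch cannot be told apart either. The labels call the 6 cultures of a group biological replicates and do not say whether they came from separate litters or cell preparations. The p-values measure the spread between these cultures, which may be in part technical. RNA was counted by 3′ tag sequencing, which reads 1 fragment near the 3′ end of a transcript, so a count needs no correction for transcript length.

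Heat shock proteins are molecular chaperones, which bind unfolded or partly folded proteins, keep them from clumping and help them fold. HSP70 works through cycles of ATP hydrolysis that J-domain proteins start and HSP110 proteins reset, HSP90 finishes the folding of kinases and receptors, and HSP60 with HSP10 forms a folding chamber inside mitochondria. When proteins unfold, the transcription factor HSF1 binds heat shock elements, inverted repeats of the letters GAA, and switches on the inducible members of the family. HSP47 stays in the endoplasmic reticulum and holds the collagen triple helix together until it leaves for the Golgi.

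The promoters were searched for exact matches to such an element close to the start, and the stretches below are printed for that reason. RefSeq (GRCm38.p6) gave a promoter for 8 of the 10 genes, and the motif was looked for on both strands in the 250 bases before the start. Capitals mark the repeat units of each match, as GAANNTTC or TTCNNGAA.
Hspa1a (chr17:34972213-34972284, minus strand): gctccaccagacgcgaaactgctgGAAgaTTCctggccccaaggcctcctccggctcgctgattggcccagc
Hspa1b (chr17:34959295-34959366, minus strand): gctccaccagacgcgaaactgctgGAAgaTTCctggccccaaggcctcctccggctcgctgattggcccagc
Hsph1 (chr5:149636342-149636393, minus strand): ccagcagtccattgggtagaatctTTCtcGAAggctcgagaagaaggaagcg
Hspb1 (chr5:135887790-135887845, plus strand): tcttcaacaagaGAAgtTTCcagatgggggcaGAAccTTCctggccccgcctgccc
Hspe1 (chr1:55088053-55088082, plus strand): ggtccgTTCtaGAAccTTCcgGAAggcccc
Hspd1 (chr1:55088053-55088082, minus strand): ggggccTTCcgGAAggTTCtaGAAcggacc
Serpinh1 (chr7:99353240-99353319, minus strand, the last 80 bases before the start, no match): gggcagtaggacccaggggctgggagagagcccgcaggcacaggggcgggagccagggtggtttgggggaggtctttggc
The element of 2 units stood in 6 of the 8 promoters, against 14.5% of 27025 genes with a RefSeq promoter. Hspd1 and Hspe1 are divergent neighbours that share 1 promoter interval, so their element is the same one read from either strand. Their interval also held the longer form of 3 such units in a row with alternating orientation, which contains the shorter one and was found in 0.514% of genes. That form matched at overlapping places, 144 to 132 and 139 to 127 bases before the Hspd1 start. The marked units therefore run on beyond 3. Hspa1a and Hspa1b were identical at 247 of the 250 bases before the start. The CCAAT box was present in 4 of the 8 promoters, those of Hspa1a, Hspa1b, Hsph1 and Dnajb1, against 37.5% of genes on either strand. No TATAAA was found in any of the 8, against 14.3% of genes. Dnajb1 and Serpinh1 held no exact match to either form of the heat shock element in this window. Looser forms and elements farther from the start were not searched, so a gene without a match may still carry an element.

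Each culture gave between 1184609 and 1817028 counted reads, so that 3 counts, taken as the floor of detection, stand for 1.65 to 2.53 CPM. This unit scales the counted reads of each culture to 1000000. Changes are log2 fold changes from edgeR's quasi-likelihood test, with its standard error (SE), its 95% interval and a p adjusted by the Benjamini-Hochberg method over all genes tested, and a gene is said to have changed where that adjusted p was under 0.05. Markers of oligodendrocytes were high in all 4 groups, with 12 genes that summed to between 7573 and 16280 CPM. Markers of astrocytes (8 genes) summed to between 3769 and 6188 CPM, and those of other cell types are given below beside the results they move with. In bulk samples such as these, fewer cells of a type and less RNA per cell cannot be told apart.

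Of the 8 members with enough counts for the test, 1 was changed by each dose: Hspb1 was lower at 30 mM, and Serpinh1 was higher at 10 mM. The share of all tested genes called was 9.67% at 30 mM (1280 of 13235) and 0.657% at 10 mM (89 of 13538). Genes called lower at 30 mM were 6.65% of those tested, and genes called higher at 10 mM were 0.391%. With 1 of 8, the members' count at 30 mM was near that background. At 10 mM it was above it, and it rests on Serpinh1 alone. The members were chosen with earlier results of these data known. An excess over all genes, here or below, is therefore not an unbiased test. Hspa1a and Hspa1b did not pass the low-count filter in any comparison.

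**Figure D1:**
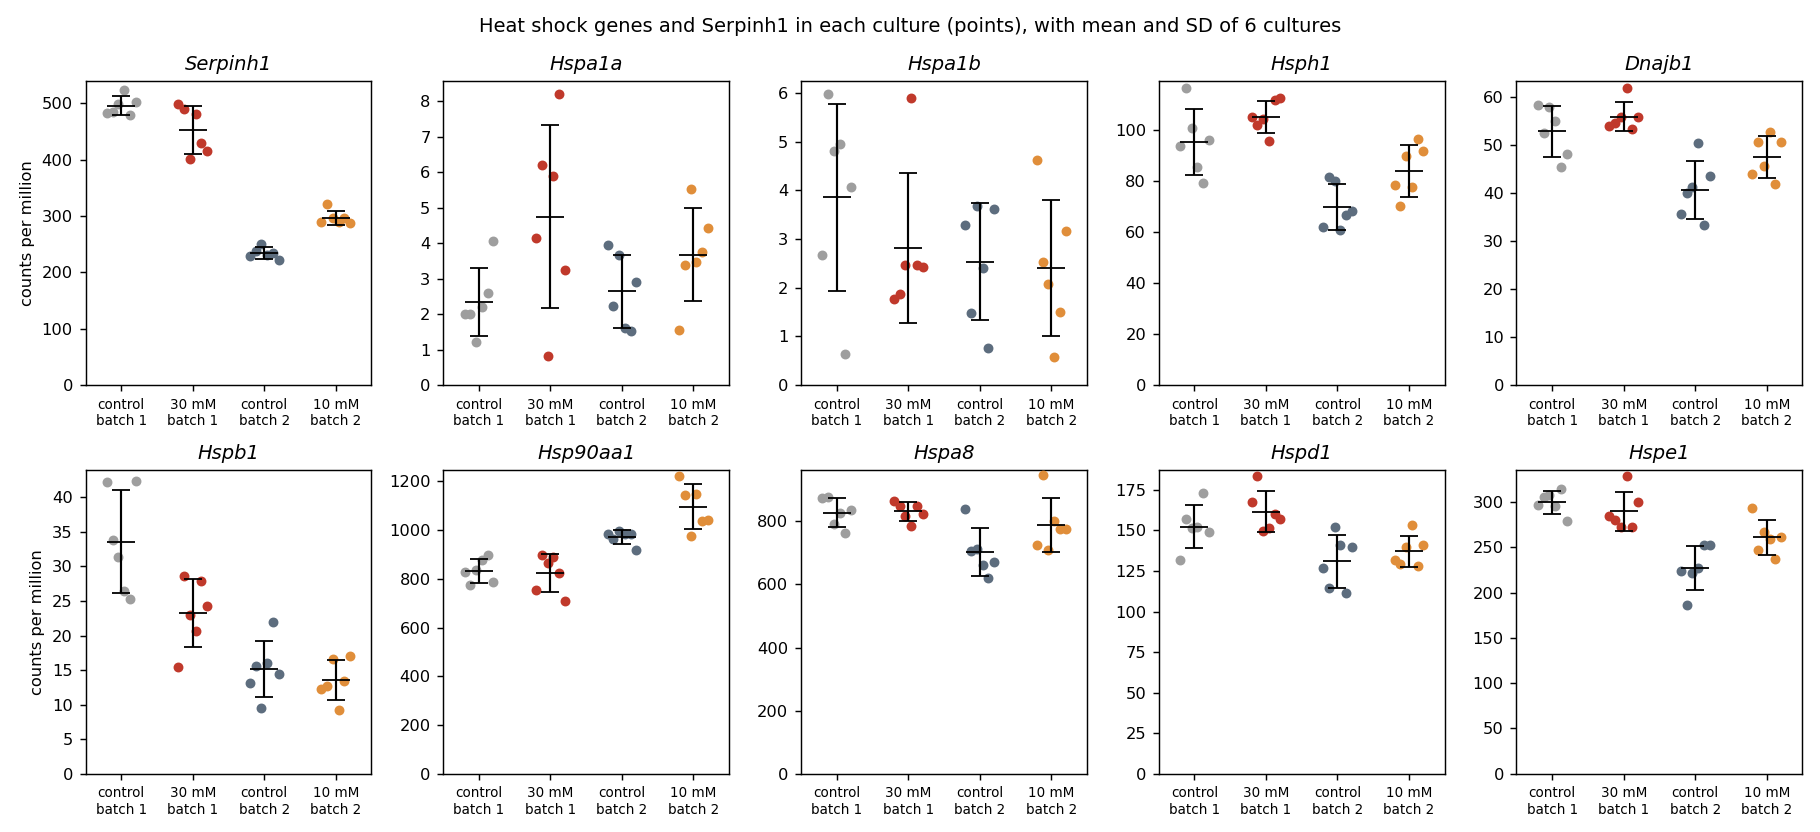
Level of each member in every culture, in CPM, with 1 panel per gene, 1 point per culture and black bars for the mean and SD of the 6 cultures of a group. Serpinh1 at 10 mM lies wholly above its own controls (289 to 321 against 221 to 251 CPM), while the 2 control groups lie apart for Serpinh1, Hspb1, Hsp90aa1 and Hspe1.

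Serpinh1 (ENSMUSG00000070436) encodes the chaperone that collagen chains need in the endoplasmic reticulum. At 10 mM its 6 cultures had 288.6, 320.8, 296.7, 289.1, 296.9 and 288.5 CPM, and the 6 controls beside them had 229.5, 238.8, 250.6, 231.4, 234.9 and 221.4 CPM. Every ethanol culture was above every control culture, which was the case, in the same direction, for 0.473% of the genes tested. The mean was 297 ± 12.4 CPM against 234 ± 9.84 CPM (SD, n = 6 each). Serpinh1 rose 1.27-fold, by 0.34 on the log2 scale (SE 0.0585, 95% interval 0.23 to 0.46, edgeR adjusted p = 0.000185), and ranked 8 by p among the 13538 genes. It was called in each of the 12 fits that left out 1 culture.

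At 30 mM the Serpinh1 levels were 498.0, 489.9, 401.5, 481.6, 429.1 and 415.9 CPM with ethanol and 483.5, 485.0, 499.0, 524.5, 479.8 and 501.7 CPM in the controls. The groups overlapped, and 3 of the 6 ethanol cultures were below all controls. The ethanol cultures also spread more widely, with a coefficient of variation of 9.27% against 3.37% in the controls, where counting error alone gives 3.97% and 3.62%. The log2 fold change was -0.13 (SE 0.0635, 95% interval -0.26 to 0.00027, edgeR adjusted p = 0.214), and it did not pass the test.

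The change in Serpinh1 differed between the doses. Taken as the 30 mM change minus the 10 mM change, each against its own controls, the difference was -0.48 on the log2 scale (SE 0.0899, 95% interval -0.66 to -0.30, edgeR adjusted p = 0.000339). Serpinh1 was the 1 member of 8 called in that test, against 3.28% of 14655 genes in either direction and 2.40% in the same direction as Serpinh1, and it was called in each of the 24 fits without 1 culture. All 8 tested members had a difference under 0, with Hspd1 at -0.0002, which turned positive with upper-quartile scaling (0.07).

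The larger gap in Serpinh1 was between the untreated groups. Controls of the first batch averaged 496 ± 16.7 CPM and those of the second 234 ± 9.84 CPM (SD, n = 6 each), with no overlap. That is a difference of 1.12 on the log2 scale (edgeR adjusted p = 4.33e-30, SE 0.0581), or 2.18-fold. The rise at 10 mM brought Serpinh1 to a level still below the lowest control of the first batch (480 CPM).

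Some markers of mural cells, smooth muscle and fibroblasts, cells that make collagen, differed between batches and with ethanol. The summed level of the 12 markers was 777 to 1010 CPM in the controls of the first batch, 343 to 469 CPM at 30 mM, 473 to 635 CPM in the controls of the second batch and 448 to 485 CPM at 10 mM. At 30 mM 6 of the 11 markers tested fell and none rose by edgeR, with a median log2 fold change of -0.79 against 0.02 over all genes. At 10 mM 2 of 10 fell and none rose by edgeR, where DESeq2 called 0 and limma voom 1. Over all genes tested, 9.67% were called at 30 mM and 0.657% at 10 mM. Between the control groups the list was mixed, with 3 markers higher in the first batch, 4 lower and a median of -0.11. The higher sum there came from the contractile genes Acta2 (360 ± 39.1 against 24.7 ± 4.09 CPM), Cnn1 (96.0 ± 11.6 against 15.4 ± 3.49 CPM) and Tagln (58.4 ± 7.96 against 7.53 ± 4.01 CPM; SD, n = 6 each). Col3a1, Lum, Dcn and Pdgfra were lower in the first batch. Single markers are named here after their values were seen. Of the 12, Col1a1 and Col3a1 are also in the list of collagen chains, and Pdgfra marks oligodendrocyte precursors too. None of the 12 was at 0 in all cultures of a group. Their part in the gap between the control groups and in the rise of Serpinh1 at 10 mM was not tested. Of 12 oligodendrocyte markers 3 rose at 10 mM, with sums of 8773 to 9956 CPM against 7573 to 9474 CPM in the controls, and their part in the rise of Serpinh1 was not tested.

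**Figure D2:**
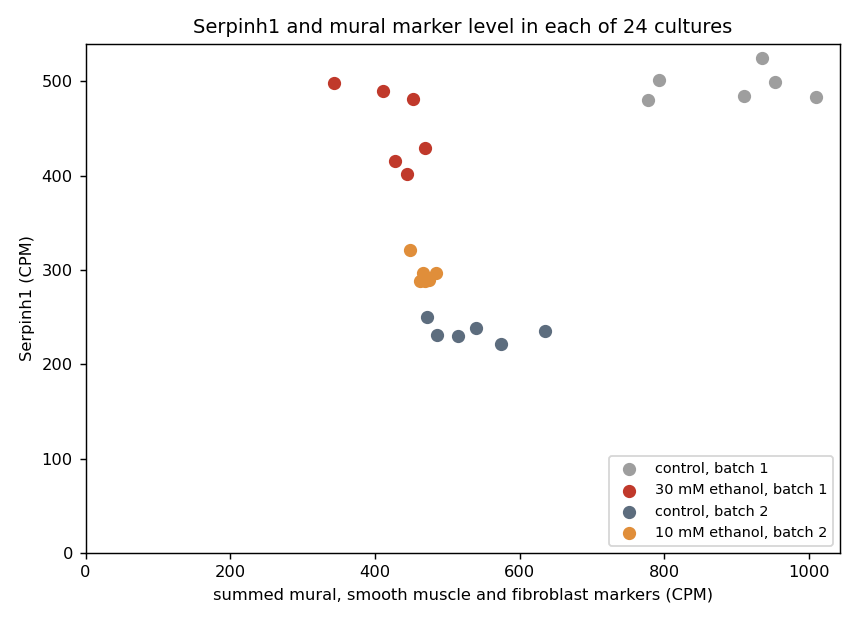
Serpinh1 level against the summed level of the 12 mural, smooth muscle and fibroblast markers, both in CPM, with 1 point per culture and 1 colour per group. The 10 mM cultures lie above their own controls in Serpinh1 with marker sums of 448 to 485 against 473 to 635 CPM, and the 30 mM cultures have lower marker sums than their own controls (343 to 469 against 777 to 1010 CPM) with overlapping Serpinh1. The make-up of the sum differs between batches, with Acta2 at 120.5 CPM at 30 mM and 21.4 CPM at 10 mM.

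Hspa1a (ENSMUSG00000091971) and Hspa1b (ENSMUSG00000090877), neighbouring copies that encode the strongly inducible HSP70, were close to the floor in all groups. Hspa1a had 1 to 10 counts per culture and 115 in all 24 cultures. Hspa1b had 1 to 9 counts per culture and 100 in all. At the last 300 bases of their transcripts no read-length stretch of 100 bases was the same in both genes.

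The median (lowest to highest) of Hspa1a was 5.02 CPM (0.819 to 8.20) at 30 mM and 2.11 CPM (1.21 to 4.07) in its controls. At 10 mM it was 3.60 CPM (1.54 to 5.52), with 2.56 CPM (1.52 to 3.95) in the controls. The groups overlapped at both doses, with 4 of the 6 cultures at 30 mM above all controls and 1 below all of them. Fitted without the low-count filter, Hspa1a had a log2 fold change of 1.02 at 30 mM (95% interval 0.15 to 1.88, unadjusted p = 0.0210 and edgeR adjusted p = 0.248) and 0.49 at 10 mM (edgeR adjusted p = 0.660).

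Hspa1b had its median at 2.44 CPM (1.78 to 5.89) at 30 mM against 4.45 CPM (0.648 to 5.98), and at 2.30 CPM (0.578 to 4.62) at 10 mM against 2.84 CPM (0.758 to 3.67). Its log2 fold changes without the filter were -0.51 (edgeR adjusted p = 0.542) and -0.10 (edgeR adjusted p = 0.978). The copies thus had opposite signs at either dose, and neither passed the test. At 1 to 10 counts per culture a change in either was not detectable at this depth unless it was large. Summed, they gave 0.29 at 30 mM (SE 0.308, 95% interval -0.33 to 0.91, edgeR adjusted p = 0.612), a range that holds both a fall and a rise.

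Hsph1 (ENSMUSG00000029657) encodes an HSP110 protein, which resets HSP70 by exchanging its nucleotide. Its median was 104 CPM (95.7 to 113) at 30 mM and 94.9 CPM (79.0 to 116) in the controls, and it was 84.1 CPM (70.1 to 96.5) at 10 mM and 67.4 CPM (60.9 to 81.6) in the controls. All 6 cultures of each dose were above the median of their controls, and the groups overlapped at both doses. The log2 fold changes were 0.14 at 30 mM (edgeR adjusted p = 0.331, SE 0.0871) and 0.27 at 10 mM (edgeR adjusted p = 0.179, SE 0.0912).

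Dnajb1 (ENSMUSG00000005483) encodes HSP40, the J-domain partner that hands unfolded proteins to HSP70. It averaged 55.9 ± 3.09 CPM at 30 mM and 52.8 ± 5.27 CPM in the controls, and 47.5 ± 4.34 CPM at 10 mM and 40.7 ± 6.07 CPM in the controls (SD, n = 6 each). The groups overlapped, and neither log2 fold change passed the test: 0.07 at 30 mM (edgeR adjusted p = 0.708) and 0.24 at 10 mM (edgeR adjusted p = 0.455, SE 0.111).

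Hspa8 (ENSMUSG00000015656) encodes the constitutive HSP70, HSC70, and Hsp90aa1 (ENSMUSG00000021270) the stress-inducible form of cytosolic HSP90. Hspa8 averaged 831 ± 29.8 CPM at 30 mM and 828 ± 45.4 CPM in the controls, a log2 fold change of 0.01 with a 95% interval of -0.11 to 0.12 (edgeR adjusted p = 0.964). At 10 mM it averaged 789 ± 84.8 CPM against 702 ± 75.1 CPM, a log2 fold change of 0.17 (edgeR adjusted p = 0.213, SE 0.0586). All 6 cultures at 10 mM were above the control median, and 1 of them was above all controls. Without control replicate 1 the value at 10 mM was 0.23 and passed the test (edgeR adjusted p = 0.0477). That was 1 of the 12 fits without 1 culture, where edgeR adjusted p reached 0.549. Hspa8 was called in 0 of 10 other settings at this dose. Of the 201 read-length windows at the end of the Hspa8 transcript, 44.8% also occur in the processed copies Gm15459 and Gm8355, whose rows held 34 counts in all against 27096 for Hspa8.

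Hsp90aa1 had a median of 845 CPM (709 to 896) at 30 mM and 831 CPM (774 to 899) in the controls, a log2 fold change of -0.02 with a 95% interval of -0.15 to 0.11 (edgeR adjusted p = 0.887), which was 0.02 with upper-quartile scaling. At 10 mM its median was 1094 CPM (976 to 1222), against 983 CPM (920 to 994) in the controls. There 5 of the 6 ethanol cultures were above all 6 controls, and the log2 fold change was 0.18 (edgeR adjusted p = 0.0886, SE 0.0515). It was called in 1 of 10 other settings, limma voom (0.17, adjusted p = 0.0499), and adjusted p in these settings reached 0.246. Of the 12 fits without 1 culture it was called in 1, that without ethanol replicate 3 (0.21, edgeR adjusted p = 0.0271). The edgeR adjusted p in those fits reached 0.250.

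Hspb1 (ENSMUSG00000004951) encodes HSP27, a small heat shock protein that holds unfolded proteins without using ATP. At 30 mM its cultures had a median of 23.6 CPM (15.4 to 28.6) and its controls 32.6 CPM (25.3 to 42.4). All 6 ethanol cultures were below the control median and 4 were below all controls. Hspb1 fell by 0.52 on the log2 scale (SE 0.159, 95% interval -0.84 to -0.20, edgeR adjusted p = 0.0285).

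That call was close to its threshold, with 26 to 63 counts per culture in these groups. It was kept in 7 of the 12 fits without 1 culture. It was lost without ethanol replicate 1 (-0.41, edgeR adjusted p = 0.0750), 3 (edgeR adjusted p = 0.0572) or 4 (edgeR adjusted p = 0.0691), and without control replicate 1 (edgeR adjusted p = 0.0959) or 6 (edgeR adjusted p = 0.0634). DESeq2 gave -0.52 with an adjusted p of 0.0585. At 10 mM Hspb1 had a median of 13.1 CPM (9.25 to 17.1) against 15.0 CPM (9.55 to 21.97), and the log2 fold change was -0.15 (95% interval -0.54 to 0.25, edgeR adjusted p = 0.869). The difference between the doses was -0.38 (edgeR adjusted p = 0.462) and did not pass the test. Of the mural, smooth muscle and fibroblast markers, whose values stand above, 6 of 11 were lower at 30 mM as well. Markers of astrocytes were higher, with 6 of 8 called and sums of 4955 to 6188 CPM against 3769 to 4407 CPM. So were those of oligodendrocytes, with 8 of 12 higher and 1 lower and sums of 9473 to 16280 CPM against 8014 to 9214 CPM. Over all genes tested at 30 mM, 9.67% were called. The part of these cell type markers in the fall of Hspb1 was not tested.

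Hspd1 (ENSMUSG00000025980), or HSP60, and Hspe1 (ENSMUSG00000073676), or HSP10, form the chamber and the lid of the mitochondrial folding machine. Hspd1 averaged 162 ± 12.6 CPM at 30 mM and 152 ± 13.2 CPM in the controls, and 137 ± 9.61 CPM at 10 mM and 131 ± 16.1 CPM in the controls (SD, n = 6 each). Its log2 fold changes were 0.09 (95% interval -0.07 to 0.24, edgeR adjusted p = 0.510) and 0.08 (95% interval -0.07 to 0.23, edgeR adjusted p = 0.783). Both intervals hold 0, and the groups overlapped at both doses.

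Hspe1, on the other strand of the same promoter, averaged 289.5 ± 21.6 CPM at 30 mM and 299.5 ± 12.5 CPM in the controls, a log2 fold change of -0.05 (95% interval -0.18 to 0.08, edgeR adjusted p = 0.670). At 10 mM it averaged 261 ± 19.3 CPM against 227 ± 24.5 CPM, and 4 of the 6 ethanol cultures were above all controls. The log2 fold change was 0.20 (edgeR adjusted p = 0.144, SE 0.0640). Pseudogene rows of Hspd1 and Hspe1 held 25 and 31 counts in all 24 cultures, or 0.498% and 0.334% of the gene's own.

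**Figure D3:**
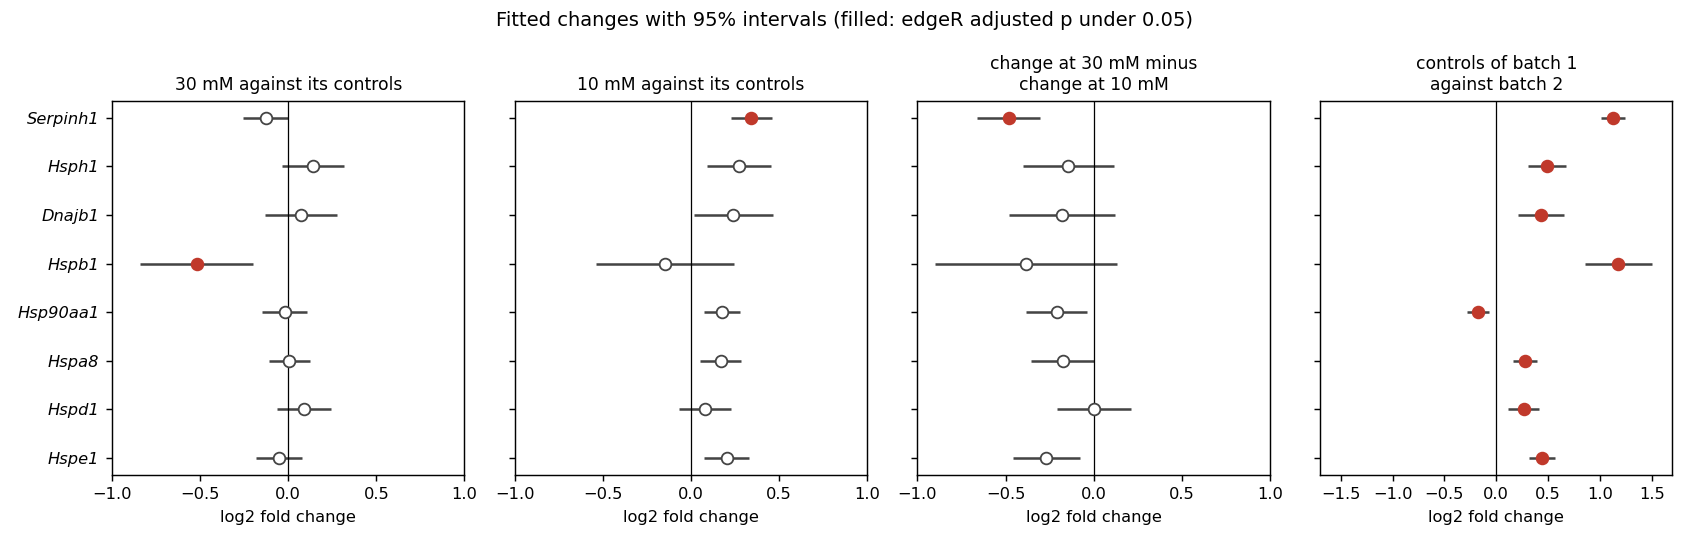
Log2 fold change of the 8 tested members, with a line for the 95% interval and a filled point where the edgeR adjusted p was under 0.05. The panels show 30 mM and 10 mM, each against the controls of its own batch, then the difference between these changes, then the controls of the first batch against those of the second. At 10 mM, 7 of the 8 values are above 0 (Hspb1 is at -0.15), and at 30 mM 4 are above and 4 below.

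At 10 mM most tested members had a positive value without passing the adjusted test. There 7 of 8 had a positive log2 fold change, with a median of 0.19 against -0.002 over all genes, and 6 of 8 were higher at an unadjusted edgeR p under 0.05, against 5.37% of all tested genes. Those 6 were Serpinh1, Hsph1, Dnajb1, Hsp90aa1, Hspa8 and Hspe1. The members were chosen with earlier results of these data known, so the excess over all genes is not an unbiased test of the set. At 30 mM 4 were positive and 4 negative, with a median of -0.007 against 0.02, and 1 of 8 had an unadjusted edgeR p under 0.05, against 23.5% of all tested genes. Summed, the 10 members took 2603 to 2892 CPM at 30 mM and 2746 to 2850 CPM in those controls. They took 2549 to 2928 CPM at 10 mM, wholly above the 2328 to 2521 CPM of the controls there. The largest parts of that sum were Hsp90aa1 (means of 1096 against 971 CPM) and Hspa8 (789 against 702 CPM), neither of them called. Serpinh1 followed in the size of its rise (297 against 234 CPM at 10 mM), and Hspb1 and Hspa1b were lower. How often the sums of other gene sets lie apart was not tested.

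The untreated groups of the batches differed in all 8 tested members, against 43.6% of 13479 genes. The first batch was higher in 7: besides Serpinh1 they were Hspb1, at 2.26-fold (edgeR adjusted p = 4.75e-09), and, as log2 differences, Hsph1 (0.49, edgeR adjusted p = 6.53e-06), Hspe1 (0.45, edgeR adjusted p = 9.56e-09), Dnajb1 (0.43, edgeR adjusted p = 0.000906), Hspa8 (0.28, edgeR adjusted p = 3.53e-05) and Hspd1 (0.27, edgeR adjusted p = 0.00272). Genes higher in the first batch made up 21.3% of those tested. Hsp90aa1 was lower in the first batch (-0.17, edgeR adjusted p = 0.00568), a call lost without the low-count filter (-0.12, edgeR adjusted p = 0.155). The control groups did not overlap for 4 of the 8, Serpinh1, Hspb1, Hsp90aa1 and Hspe1, against 18.9% of genes.

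Cell type markers also differed between the control groups. The 10 microglia markers summed to 166 to 280 CPM in the first batch and 2045 to 2479 CPM in the second, with 8 of 8 tested lower in the first. Their part in the members' differences between batches was not tested. The mural, smooth muscle and fibroblast markers went in both directions, as given above. Because levels in untreated cells differed this much, each dose is read against its own controls only.

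Among other chaperones, the lists below leave out the 10 members. The lists too were chosen with earlier results of these data known. Heat shock factors showed no call at 30 mM (0 of 5) or at 10 mM (0 of 4) by edgeR, DESeq2 or limma voom, and 0 had an unadjusted edgeR p under 0.05 at either dose. Hsf1 itself, named after its values were seen, had log2 fold changes of 0.02 (edgeR adjusted p = 0.970) and 0.16 (edgeR adjusted p = 0.851). Of 17 other genes known as HSF1 targets, 1 fell at 30 mM and 0 rose by edgeR, with 4 at an unadjusted p under 0.05 and a median of -0.07. Over all tested genes 9.67% were called and 23.5% had an unadjusted edgeR p under 0.05, so neither count stood above the background. The gene that fell was Cryab, a small heat shock protein abundant in oligodendrocytes (-0.34, edgeR adjusted p = 0.000175). It was also the 1 call at 30 mM among 4 small heat shock proteins tested beside Hspb1. Of these 4, 2 had an unadjusted edgeR p under 0.05, and the median was -0.17. At 10 mM 0 of the 4 were called and 0 had such a p. All 4 were higher in the controls of the first batch by edgeR, where DESeq2 called 3. Of the 17 HSF1 targets, 0 were called at 10 mM by edgeR, DESeq2 or limma voom. There 3 had an unadjusted edgeR p under 0.05, with a median of 0.02. Over all genes tested at 10 mM, 1366 of 13538 had such a p and the median was -0.002.

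HSP70 relatives (6 tested) and HSP90 with its co-chaperones (11 tested) had no call at either dose by edgeR, DESeq2 or limma voom. At an unadjusted edgeR p under 0.05 the HSP70 relatives had 0 at both doses, and the HSP90 list had 3 at 30 mM and 2 at 10 mM. Of 13 J-domain proteins, Dnajc8 fell at 30 mM (-0.27, edgeR adjusted p = 0.0196) and Dnajb2 rose at 10 mM (0.43, edgeR adjusted p = 0.0291), where DESeq2 called 0 of the list. Of 8 nucleotide exchange factors and partners of HSP70, Bag6 fell at 30 mM (-0.24, edgeR adjusted p = 0.0445), in a list where DESeq2 and limma voom called 0. In mitochondria, Hspa9, the HSP70 that pulls proteins in and passes them on to HSP60, fell at 30 mM (-0.26, edgeR adjusted p = 0.00656), the 1 call among 12 genes. At 30 mM 9.67% of all tested genes were called and 23.5% had an unadjusted edgeR p under 0.05. The counts given here for these lists at that dose were near or under those shares. At 10 mM 0.657% of all tested genes were called, and 1366 of 13538 had an unadjusted edgeR p under 0.05. Beside these stand 1 call of 13 J-domain genes, and 2 of 11 HSP90 genes with such a p. The call rests on Dnajb2 alone.

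The cytosolic folding chamber TRiC and its feeder prefoldin were lower in part at 30 mM. Of their 14 genes, 6 fell and 0 rose by edgeR, with a median of -0.19 against 0.02 over all genes and 9.67% called. At the same dose 6 of 11 mural, smooth muscle and fibroblast markers were lower, 6 of 8 astrocyte markers were higher and 8 of 12 oligodendrocyte markers were higher, and their part in this fall was not tested. The 4 with the smallest p were Pfdn1 (-0.49, edgeR adjusted p = 4.46e-06), Cct3 (-0.25, edgeR adjusted p = 0.0111), Cct6a (-0.27, edgeR adjusted p = 0.0122) and Cct7 (-0.25, edgeR adjusted p = 0.0187). At 10 mM 0 of the 14 were called by edgeR, DESeq2 or limma voom, and 1 had an unadjusted edgeR p under 0.05.

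Collagen chains are the clients of Serpinh1. At 30 mM 11 of 15 tested chains fell and 0 rose, with a median of -0.49, among them Col1a2 (-0.97, edgeR adjusted p = 2.32e-10) and Col1a1 (-0.80, edgeR adjusted p = 2.35e-07), the chains of type I collagen. The enzymes that fold, modify and cross-link collagen had 6 of 22 lower and 0 higher, led by the lysyl oxidase Lox (-0.91, edgeR adjusted p = 5.51e-07). Over all genes tested at 30 mM, 9.67% were called, 6.65% were called lower and the median was 0.02. Serpinh1, at -0.13, was not called there. Some mural, smooth muscle and fibroblast markers fell as well (6 of 11, median -0.79, Acta2 at -1.60 and Dcn at -0.79). Among those 6, Col1a1 and Col3a1 are themselves collagen chains. Pdgfra (-0.20), Lum (-0.13), Pdgfrb (-0.08), Kcnj8 (0.03) and Rgs5 (0.16) were not called. The part of these markers in the fall of the collagen genes was not tested.

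At 10 mM, where Serpinh1 rose, 1 of 16 chains fell (Col3a1, -0.38, edgeR adjusted p = 0.0291) and 0 rose, while DESeq2 and limma voom called 0 of the 16. Of 22 collagen enzymes 1 rose, P4ha1, a catalytic subunit of prolyl 4-hydroxylase (0.38, edgeR adjusted p = 0.0171). Over all genes tested at 10 mM, 0.657% were called and 0.391% were called higher. Each of these counts rests on 1 gene.

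General chaperones of the endoplasmic reticulum, where HSP47 resides, rose in part at 10 mM. All 14 tested had a positive log2 fold change there, with a median of 0.20, and 3 passed the test, against 0.657% of all genes: Hspa5 (BiP, 0.33, edgeR adjusted p = 3.97e-05), Sdf2l1 (0.45, edgeR adjusted p = 0.00963) and Hsp90b1 (GRP94, 0.23, edgeR adjusted p = 0.0117). At 30 mM 0 of the 14 were called by edgeR, DESeq2 or limma voom, 2 had an unadjusted edgeR p under 0.05, and the median was -0.05. The difference between the doses passed the test for Hspa5 (-0.37, edgeR adjusted p = 0.00871), Pdia6 (-0.37, edgeR adjusted p = 0.0125) and Manf (-0.43, edgeR adjusted p = 0.0143).

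**Figure D4:**
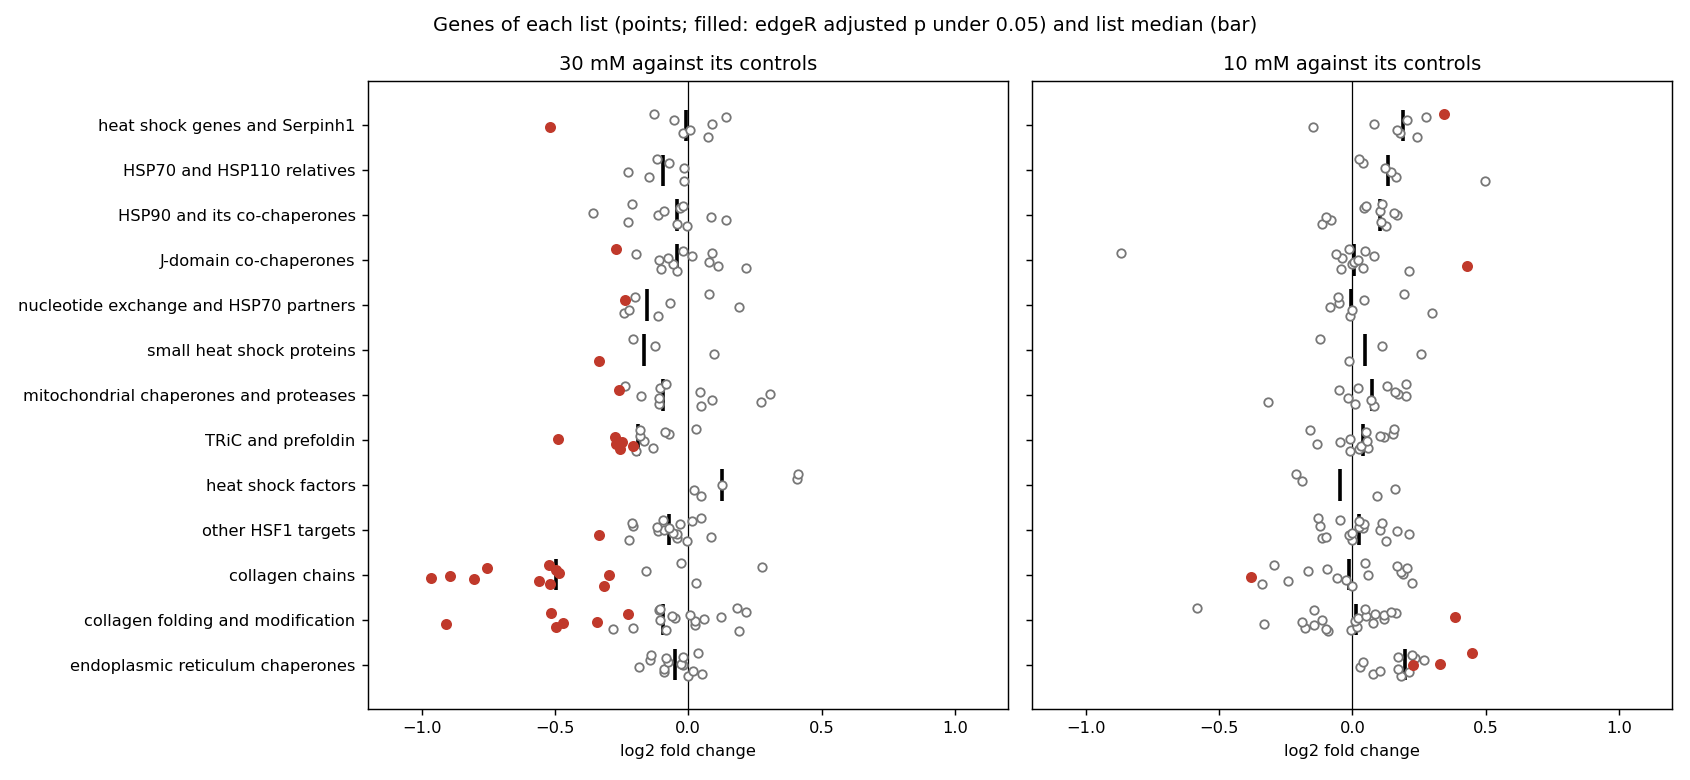
Log2 fold changes of the members and of the related gene lists at 30 mM and at 10 mM, with 1 point per tested gene, filled where the edgeR adjusted p was under 0.05, and a line at the list's median. At 30 mM 13 of 15 collagen chains and 13 of 14 genes of TRiC and prefoldin lie below 0 (medians of -0.49 and -0.19), and at 10 mM all 14 endoplasmic reticulum chaperones lie above 0 (median 0.20).

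Within groups, the members were compared pair by pair. Each gene's level was taken as its deviation from the group mean on the log2 CPM scale, over 24 cultures that share depth and library. Among the 28 pairs of the 8 tested members the median Pearson r was -0.04, from -0.58 (Hsph1 with Hsp90aa1) to 0.23 (Serpinh1 with Hspa8), and 12 were above 0. The genes most like Serpinh1 by this measure among 6391 compared were Fam124a (r = 0.768), Nfix (0.711) and Pmm1 (0.711). Those most like Hsph1 were Tars2 (0.760), Stambp (0.706) and Qars (0.693), and those most like Hspd1 were Ap3s2 (0.678), Ptges3 (0.677) and Fgfr2 (0.672). For each member these are the highest of 6391 values over 24 cultures. How high the top values run between unrelated genes was not tested.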

How the data were processed

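The authors deposited raw read counts per gene from 3′ tag sequencing of total RNA, 1 table for 24 cultures, with Ensembl gene identifiers. Reads were trimmed with cutadapt 1.18 and aligned with STAR to GRCm39, tools and build named per the submitters' processing notes. The counting program, annotation release, strand setting and treatment of PCR duplicates are not given in the sources used here, and counts without molecular identifiers are not independent molecules. Symbols were matched through a gene-name table for 52083 of 55359 rows. The genome reference available here was GRCm38, not the GRCm39 of the alignment, so gene coordinates are not given. Promoter coordinates are those of RefSeq on GRCm38.p6.

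Counts were fitted as deposited with edgeR 4.0.16 (R 4.3.3): filterByExpr, TMM scaling and the quasi-likelihood test, with p adjusted by the Benjamini-Hochberg method over all genes tested and a threshold of 0.05. Each dose was fitted with the 12 cultures of its batch. The dose difference and its interaction term used all 24, and the untreated groups were fitted alone. CPM are counts scaled to a column total of 1000000. Totals ran from 1184609 to 1817028, and floors of 3 counts cover counting error only. Replicates were compared by a chi-square test of their counts, and in none of 60 pairs did they agree within sampling noise (largest p = 3.4e-11). Likeness used Pearson r of group-centred log2 CPM with a prior count of 2, over genes with a mean log2 CPM of at least 5. Scripts were tested on simulated data.

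Named genes were all 10 members, up to 4 called genes per list and comparison with the smallest p, and the 3 genes most like Serpinh1, Hsph1 and Hspd1. The members and lists were chosen with earlier results of these data known. Alternatives were DESeq2 1.42.0, limma voom (3.58.1), other scalings, no low-count filter, a replicate block, a joint fit, summed copies, summed pseudogenes and leaving out each culture.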

Additional observations from a re-analysis of the deposited data

Results flagged for a closer look

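In 3 of 40 series of 6 cultures, 1 culture stood far from the other 5 by Dixon's criterion, where chance gives about 1 in 20, or 2.0 of 40. Serpinh1 was 321 CPM in replicate 2 of the 10 mM group, with the others at 289 to 297 CPM, and the rise at that dose was called without it as well. Hspa1b was 5.89 CPM in replicate 4 of the 30 mM group and Dnajb1 was 61.9 CPM in the same culture.

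The change at 30 mM minus the change at 10 mM, each against its own controls, passed edgeR's test of the difference itself in these genes, given as log2 values. Serpinh1 was at -0.48. Among collagen chains and collagen enzymes, Col1a2 was at -0.92, Col1a1 at -0.79, Col4a2 at -0.69, Pcolce, which enhances procollagen cleavage, at -0.69 and P4hb, protein disulfide isomerase, at -0.32. Of collagen enzymes limma voom called 1, against 2 by edgeR. Of endoplasmic reticulum chaperones, Manf was at -0.43, Hspa5 at -0.37 and Pdia6 at -0.37. Of other chaperones, Pfdn1 was at -0.49, Pfdn2 at -0.41, the mitochondrial nucleotide exchange factor Grpel1 at -0.39 and Cryab at -0.33. Dose and batch cannot be told apart in these values.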

How the results depend on the processing

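Of 408 values of single genes under other settings, 393 kept their direction and their side of the threshold. The rise of Serpinh1 at 10 mM was called in 10 of 10 other settings (0.33 to 0.37) and its dose difference in 9 of 9 (-0.54 to -0.41). DESeq2 called 0 members at 30 mM and 39 genes at 10 mM (89 by edgeR), a joint fit of 24 cultures called 21 genes at 10 mM, and limma voom called 2 members there. Leaving out 1 culture gave 953 to 1563 genes and 0 to 1 members at 30 mM, 37 to 95 genes and 1 to 2 members at 10 mM, 329 to 759 genes and 1 to 2 members for the dose difference, and 5367 to 6250 genes and 8 members between controls. The 10 mM count was 40 and 45 without ethanol replicates 2 and 4, and 57, 37 and 46 without control replicates 4, 5 and 6. The dose difference was 759 and 723 without 30 mM replicates 1 and 2, and Hspe1 joined it without control replicate 6 of the first batch (-0.31, edgeR adjusted p = 0.0408). Signs turned in values near 0: Hsp90aa1 at 30 mM (0.0167 with upper-quartile scaling, -0.0593 to 0.0233 without 1 culture), Hspa8 at 30 mM (-0.0237 without the low-count filter, -0.0169 to 0.0260 without 1 culture) and the dose difference of Hspd1 (0.0721 with upper-quartile scaling, 0.0226 with total counts, 0.00333 with the replicate block, -0.0759 to 0.0335 without 1 culture). The causes were not tested. Upper-quartile scaling moved the split of calls at 30 mM from 400 of 1280 higher to 551 of 1248, and for the dose difference from 129 of 481 to 222 of 425. TMM-scaled library sizes moved Serpinh1 in the first controls to 513 CPM. Same-numbered cultures deviated together little (r from -0.131 to 0.203 at 30 mM and -0.086 to 0.070 at 10 mM). A culture's best match bore its own number for 1 of 6 at 30 mM (replicate 6) and 0 of 6 at 10 mM. Across the 2 control groups it did for 4 of 6 (r from 0.004 to 0.127). This cannot show whether the numbers stand for shared preparations, and the main fits did not pair the cultures. A replicate block gave 1208, 68 and 461 genes at 30 mM, at 10 mM and for the dose difference, with 1 member in each. Between the controls no block was fitted. The depth limits Hspa1a and Hspa1b, at 1 to 10 counts per culture.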
